A study of Drosophila melanogaster with 3 samples.

Results

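The nuclear genes of the respiratory chain and the ATP synthase were examined for binding of Doc3 in Drosophila melanogaster embryos. Members were the protein-coding genes on the main chromosomes whose symbol starts with ND-, Sdh, UQCR-, COX or ATPsyn. The rule took 88 of 13945 genes, of which 40 belong to complex I, 8 to complex II, 9 to complex III, 16 to complex IV and 15 to complex V. Of these, 24 carry the symbol or a RefSeq synonym of another gene followed by L, in some with a digit, and are called like copies below. The other 64 have no such name. The rule uses symbols only, so it also takes Sdhaf3, an assembly factor of complex II, and it leaves out subunits with other names, such as blw, levy and cype.

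Doc3 is a T-box transcription factor known for its part in the amnioserosa and the embryonic heart. The flies carried a Doc3-eGFP fusion as a transgene, and chromatin was immunoprecipitated with an antibody against GFP and sequenced. The material was whole embryos collected over 0 to 24 hours, so cells with and without Doc3 were mixed. There were 3 biological replicates in a single group, and no mock or input sample was analysed here.

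Complexes I to IV pass electrons to oxygen and pump protons across the inner mitochondrial membrane, except complex II, which pumps none, and complex V uses the gradient to make ATP. Complex I, NADH dehydrogenase, has core subunits that carry the flavin and iron-sulphur clusters and many accessory subunits. Complex II is succinate dehydrogenase, complex III the cytochrome bc1 complex, complex IV cytochrome c oxidase, and complex V the ATP synthase. Most of the protein parts are encoded in the nucleus, and the remainder in the mitochondrial genome. In Drosophila, many subunits have a broadly expressed gene and a duplicate whose expression is largely limited to the testis. The peak lists hold no expression values, so copies were sorted here by name alone.

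A gene was counted as having a peak where the summit of a peak in the authors' conservative list lay within 500 bp of any of its annotated transcription start sites (TSSs). That list held 2793 peaks on the dm6 build. Each peak carries the authors' signal value, whose scale is not stated and differs between lists, so it was used only within a list. For each replicate, a gene took the highest signal of the ranked regions with a summit within 500 bp, or 0 where there was none, and was placed by percentile among all 13945 genes. Genes without any region shared a percentile of 23.3 in replicate 1, 16.6 in replicate 2 and 9.75 in replicate 3. Sequencing depth is unknown. No test was made, because there is 1 group without controls and genes are not replicates; 95% Wilson intervals are given, and they cover counting error only.

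A peak was found at 31 of the 88 members, or 35.2% (26.1 to 45.6), beside a background of 21.4% of all protein-coding genes (2980 of 13945). All 31 lay at genes without a like name, of which 48.4% had one (36.6 to 60.4). None of the 24 like copies had a peak, which allows a share of up to 13.8% by the same interval. The replicates' own thresholded lists gave 20 members in replicate 1, where 15.9% of all genes had a peak, 29 members in replicate 2 beside 19.8%, and 20 members in replicate 3 beside 15.6%. Of the 31, 16 had a thresholded peak in every replicate, 7 in 2 of them, 4 in 1 and 4 in none. Keeping only conservative peaks that overlapped the thresholded lists of both other replicates left 19 members (21.6%, against 14% of all genes) without replicate 1, 16 (18.2%, against 13%) without replicate 2 and 20 (22.7%, against 14.3%) without replicate 3. In the ranked lists the median member stood at percentile 66.1 in replicate 1, 64.4 in replicate 2 and 56.0 in replicate 3, against 50 for all genes by construction.

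**Figure D1:**
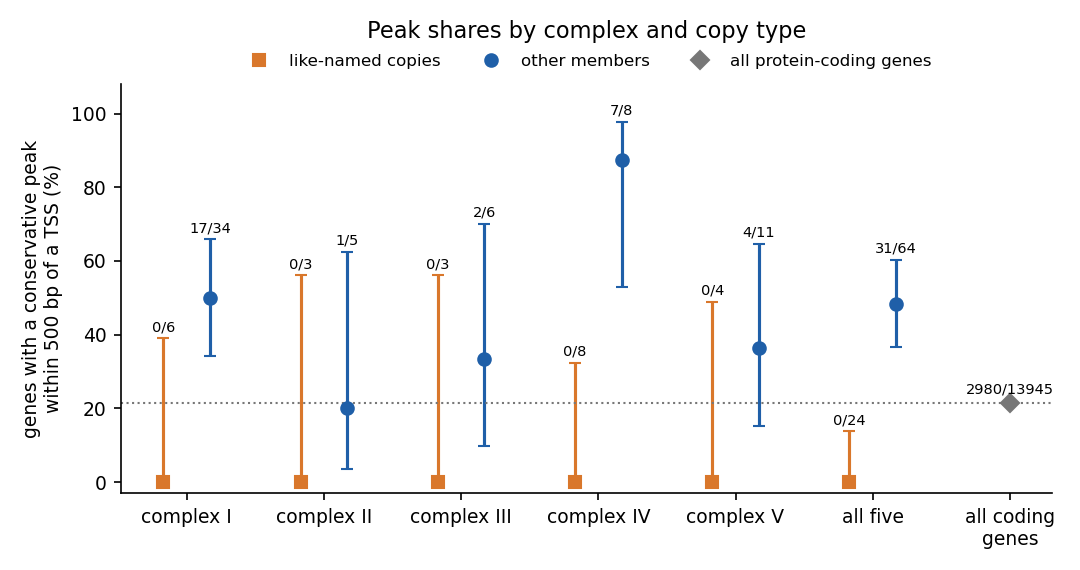
Share of genes with a conservative peak within 500 bp of a TSS, in percent on a linear axis, for like copies (orange squares) and other members (blue circles) of each complex and for all protein-coding genes (grey diamond and dotted line). Bars are 95% Wilson intervals and the counts are printed above them: no like copy had a peak, while 7 of 8 other complex IV members did, against 21.4% of all genes.

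Complex I, with 17 of 40 members (42.5%, 28.5 to 57.8), held 17 of the 31 bound members. Without its like copies the share was 17 of 34, or 50%. The 7 nuclear core subunits and the 27 accessory subunits were looked at separately. Among the core subunits 2 had a peak, or 28.6% (8.22 to 64.1), and among the accessory subunits 15 had one, or 55.6% (37.3 to 72.4). The intervals overlap widely, and that of the core subunits includes the 21.4% of all genes.

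Of the core subunits, ND-24 (an iron-sulphur subunit of the NADH-oxidising arm) had a peak of signal 440.6, on chrX:17632059-17632272, with its summit 52 bp downstream of a TSS. Its replicate signals of 98.01, 191 and 132.5 stood at percentiles 97.3, 96.8 and 95. ND-23, another iron-sulphur subunit, had a peak of 264.9 at 43 bp upstream, a promoter it shares with spn-E, a germline RNA helicase. The remaining core subunits had no peak: ND-30 averaged percentile 66.2 ± 10.2 (SD, n = 3), ND-51 63 ± 5.98, ND-75 60.1 ± 13.8, ND-49 46.4 ± 13.6 and ND-20 37.6 ± 21.8. All 5 lay below both bound core subunits on average, an order largely set by peaks called from these same replicates. Only ND-20 and ND-49 averaged below the middle of all genes.

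Accessory subunits gave the strongest peaks of complex I. ND-SGDH had a peak of 544, rank 182 of 2793, on chr3L:12138481-12138902, 66 bp upstream of its TSS, and replicate signals of 83.37, 233.2 and 171.9. ND-ASHI had a peak of 488 on chrX:6678139-6678414, 3 bp from the TSS, with 95.09, 195.9 and 188, in a stretch it shares with Fum1, a fumarase gene. Both stood at or above percentile 95.8 in every replicate. ND-B14.5A followed with 343.2, and its replicate signals were 68.45, 163.1 and 114.9. ND-13B (261.3), ND-B8 (233.9), ND-B14.5B (205.5), ND-42 (190.4), ND-B15 (174), ND-19 (164.7) and ND-15 (152.1) had mid-strength peaks. The peaks of ND-42 and ND-B8 lay nearer to the TSS of another gene, Cchl (a cytochrome c haem lyase) for ND-42 and Secp43 for ND-B8, and the same held for ND-B15 with CG10151 and ND-19 with CG30161.

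At the lower end, ND-MNLL (133.2), ND-13A (95.64), ND-MLRQ (76.9), ND-B12 (76.12) and ND-B22 (68.78) had the weakest complex I peaks. ND-B22 was the weakest of all members, at rank 2333. The ND-MNLL summit lay nearer to p115. ND-B12, ND-B22 and ND-MNLL had no thresholded peak in any replicate, and ND-B12 had no ranked region in replicate 3, where its percentile was 9.75 beside 78.7 and 80.3 in replicates 1 and 2. Among accessory subunits without a peak, ND-AGGG averaged percentile 20.5 ± 3.5 and ND-B18 32 ± 32.7. ND-AGGG lay 440150 bp from the nearest conservative summit.

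Complex II was bound at 1 of 8 members (12.5%, 2.24 to 47.1), an interval that includes the 21.4% of all genes. That gene was SdhC, a membrane anchor subunit, whose peak of 163.7 on chr3R:11209880-11210363 lay 273 bp upstream and nearer to Tctp. SdhC had replicate signals of 25.42, 76.26 and 42.43, at percentiles 80.7, 85.4 and 80.9. SdhD, the other anchor, had no conservative peak but had a thresholded one in replicate 2, and its signals were 11.6, 59.07 and 53.55. It stood lower in replicate 1 than in the other replicates, at percentiles 62.5, 81.2 and 84.3. SdhA, the flavoprotein, averaged percentile 58.2 ± 14.8, SdhB, the iron-sulphur protein, 48.9 ± 21.6, and the assembly factor Sdhaf3 38.5 ± 24.5.

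Complex III had a peak at 2 of 9 members (22.2%, 6.32 to 54.7), near the 21.4% of all genes. UQCR-14, a small subunit, had a peak of 398.7 on chrX:16286143-16286377, 28 bp upstream, with replicate signals of 93.19, 136.2 and 157.6 and percentiles of 96.8, 93.5 and 96.6. UQCR-C2, one of the large core proteins, had a weaker peak of 99.96 at 102 bp downstream, with 21.41, 41.55 and 33.61. Its partner UQCR-C1 had none and averaged percentile 58.8 ± 6.16. UQCR-6.4 averaged 45.7 ± 19.3. UQCR-11 and UQCR-Q had no ranked region within 500 bp in any replicate, which besides these was so only for SdhBL among the 88. UQCR-11 lay 584605 bp from the nearest conservative summit, whereas UQCR-Q lay 1106 bp from one.

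Complex IV had a peak at 7 of 16 members (43.8%, 23.1 to 66.8), and its like copies made up all but 1 of the unbound ones: 7 of the 8 genes without a like name were bound (87.5%, 52.9 to 97.8). COX7B, a small nuclear subunit, had the strongest peak of any member, 569.8 at rank 158, on chr3L:17425209-17425484 with the summit 126 bp upstream and the TSS of Sec3 within 500 bp of it. Its replicate signals were 123.5, 216 and 210.5, and it stood at percentile 97.7 or higher in each replicate. COX7A followed with 366.9 on chr3R:8340953-8341128 and signals of 75.46, 150.5 and 140.3. COX7C (262.5), COX6B (255.9), COX8 (205.1), COX4 (173.1) and COX5B (134.5) completed the bound set. The summit at COX7C, 319 bp downstream of its TSS, was the farthest from a TSS that still counted, and it lay nearer to oys. At COX6B the summit lay nearer to CG33932, with Rpp20 and CG18809 also within 500 bp. Where only the nearest coding TSS counted, 5 of the 16 members had a peak (31.2%, against 15.7% of all genes). COX5A, the exception, had replicate signals of 18.61, 35.32 and 33.94 and averaged percentile 73.7 ± 3.26, with no summit closer than 2898 bp. The median percentile of the 8 genes was 88.1 ± 0.987 over the replicates (SD, n = 3). This place and its narrow spread were largely set by the 7 peaks, which were called from these same replicates. All coding genes with a peak had a median percentile of 89 in each replicate.

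Complex V had a peak at 4 of 15 members (26.7%, 10.9 to 52), near the 21.4% of all genes. ATPsynF, a membrane subunit, had a peak of 372.5 with replicate signals of 85.07, 160.8 and 129.4. It lay on a stretch shared with CG3548, whose TSS was nearer to the summit. ATPsynCF6, coupling factor 6 of the peripheral stalk, had 323.2 on chr3R:23355933-23356171, with its summit 2 bp upstream and signals of 56.26, 127.1 and 139.5. ATPsyngamma, the rotating shaft, had 169 at a summit nearer to yata, with no thresholded peak in any replicate, and ATPsynE had 137.3. All 4 stood at percentile 82.8 or higher in each replicate, a place largely set by peaks called from these same replicates. ATPsynbeta, the catalytic subunit, had no conservative peak, but thresholded peaks in replicates 2 and 3, and signals of 20.5, 52.71 and 66.41. ATPsyndelta averaged percentile 72.9 ± 7.57 and ATPsynO 64.9 ± 9.9, while ATPsynD averaged 36.3 ± 23 and ATPsynG 22.9 ± 6.15. ATPsynD, at 678 bp, had the closest summit beyond the 500 bp limit, followed by SdhBL at 781 bp.

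Between complexes, intervals of the shares all overlapped. Complexes I and IV stood above the share of all genes in each of 14 alternatives, whereas complexes II, III and V changed sides in some. The median percentile averaged 65.9 ± 9.2 for complex I, 41.9 ± 18.1 for complex II, 40.6 ± 16.7 for complex III, 75.9 ± 2.77 for complex IV and 65.5 ± 4.57 for complex V (SD, n = 3 replicates). With like copies included, complexes II and III varied most from replicate to replicate. Without like copies the values were 69 ± 11.8 for complex I, 64.1 ± 3.81 for complex II and 52.2 ± 7.85 for complex III. They were 88.1 ± 0.987 for complex IV and 76.7 ± 2.36 for complex V, so complex I then varied most.

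**Figure D2:**
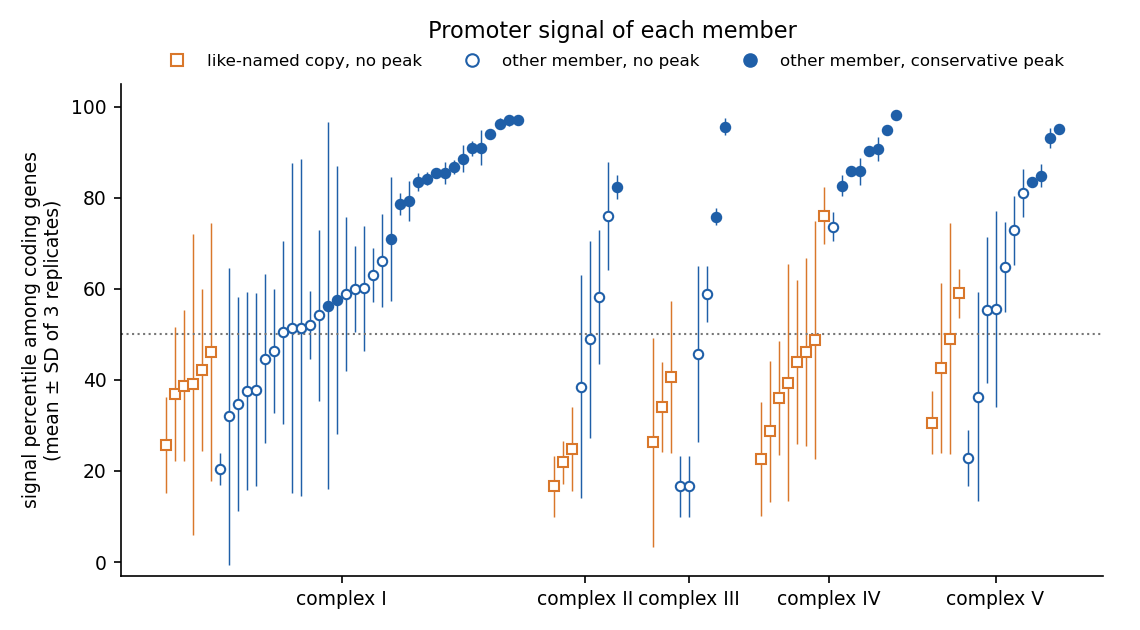
Signal percentile among all protein-coding genes for each of the 88 members, as the mean of 3 replicates with SD bars, grouped by complex and ordered by mean within copy type; filled symbols had a conservative peak and the dotted line marks percentile 50. Like copies (orange) lie mostly below the line. The peaks of the filled members were called from these same replicates, which largely sets their high place.

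The like copies were set against the genes they are named after. The 24 like copies point to 21 parent genes; 18 of these are members, and the other 3, levy, cype and sun, were matched through their synonyms. Of the 24 like copies 0% had a peak, and of the 21 parents 11 had one (52.4%, 32.4 to 71.7). No like copy had a peak in any replicate's thresholded list either. Like copies had a median percentile of 23.3 in replicate 1, 39.9 in replicate 2 and 39.4 in replicate 3, against 80.7, 84.4 and 80.9 for the parents. The difference, like copies minus parents, was -57.4, -44.5 and -41.5 percentile points, or -47.8 ± 8.43 (SD, n = 3). The groups' medians did not overlap between replicates. All coding genes without a peak had medians of 23.3, 39.4 and 39.8, so like copies stood about where genes without a peak stand. The place of the 11 parents with a peak was largely set by peaks called from these same replicates. No ranked region lay near 19 of the 24 like copies in replicate 1 (79.2%), 8 in replicate 2 (33.3%) and 3 in replicate 3 (12.5%), against 46.7%, 33.2% and 19.5% of all genes. The share was thus above that of all genes in replicate 1, about equal to it in replicate 2 and below it in replicate 3.

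The 24 pairs were split by whether the parent had a peak. Peaks come from the same replicates, so in the 13 pairs whose parent had one a lower like copy was largely set by it. No count is read from those pairs. In the 11 pairs in which neither gene had a conservative peak, the like copy was lower in all 3 replicates in 4. It was higher in all 3 in none, and 7 pairs were mixed, with ties at 0 counted as mixed. In 1 of the 4, the parent ATPsynbeta had thresholded peaks in replicates 2 and 3, so that order was partly set as well. Among all pairs COX7CL, whose parent had a peak, had the widest gap: signals of 0, 10.54 and 0 against 52.07, 105.2 and 93.02 for COX7C. The difference was -67.8 ± 13 percentile points. COX7CL lies 281 bp from COX7C on the same chromosome arm. COX5BL lies 122 bp from COX5B and had signals of 13.82, 0 and 12.75 against 30.15, 72.35 and 40.87 for COX5B. The nearest conservative summit was 1676 bp from a TSS of COX7CL and 1749 bp from one of COX5BL.

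Complex IV supplied 8 pairs, all with a parent that had a peak, so the lower values of these like copies were largely set by the calls. COX6AL (0, 29.41 and 19.5) and COX6AL2 (0, 19.55 and 13.92) stood against levy, the broadly expressed COX6A subunit gene, at 130.6, 231 and 260.7. COX6CL had 0, 0 and 17.62 against 70.81, 124.4 and 117.1 for cype, the COX6C subunit gene. COX4L had 0, 24.4 and 19.52 against 34.63, 83.67 and 57.47 for COX4. COX7AL2 had 0, 44.07 and 18.08 against COX7A, whose values are given above. COX7AL was the highest like copy, with 22.12, 34.1 and 42.06 and a mean percentile of 76.1 ± 6.28, and its difference from COX7A, which is 2625 bp away, was -18.9 ± 5.88 points, lower in every replicate. The series-level lists of 2301 and 3513 peaks held a weak peak of 79.68 near COX7AL, with its summit at -310 bp from the TSS, and no other like copy had one there.

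In the other complexes, ND-24L (0, 12.86 and 36.67) was lower than ND-24, ND-B14.5AL (0, 21.96 and 13.08) than ND-B14.5A, UQCR-14L (0, 16.69 and 13.64) than UQCR-14, SdhCL (0, 0 and 13.12) than SdhC and ATPsynCF6L (0, 12.82 and 11.69) than ATPsynCF6, in every replicate. The parents in these pairs all had a peak called from the same replicates, so this order was largely set. The other complex II copies stood lower too: SdhAL had 0, 0 and 8.599 against 13.05, 15.63 and 26.86 for SdhA, and SdhBL had 0 in each replicate against 11.68, 26.26 and 7.368 for SdhB. ATPsynbetaL had 10.59, 22.32 and 24.89 against ATPsynbeta at 20.5, 52.71 and 66.41. ND-51L1 had 0, 0 and 14.12 against 12.56, 23.93 and 27.18 for ND-51.

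The 7 mixed pairs were among the 11 in which neither gene had a peak. ND-51L2 had 0, 0 and 35.25 against ND-51, and ATPsynepsilonL had 16.52, 21.81 and 5.884 against 11.94, 46.42 and 36.88 for sun, the epsilon subunit gene. ND-20L (0, 17.56 and 22.57) was above ND-20 (10.72, 0 and 13.56) in replicates 2 and 3, and ATPsynGL (0, 17.34 and 23.35) above ATPsynG (0, 0 and 10.38) in the same 2 replicates. ND-49L had 0, 12.31 and 21.61 against 7.502, 24.42 and 11.49 for ND-49. UQCR-11L had 8.016, 0 and 0 against 0 throughout for UQCR-11, and UQCR-6.4L had 0, 24.21 and 15.84 against 0, 24.38 and 21.7 for UQCR-6.4. No order held in all 3 replicates in these 7 pairs. UQCR-11L, UQCR-6.4L and ATPsynGL were tied with their parents at 0 in at least 1 replicate and kept 1 order in the rest.

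**Figure D3:**
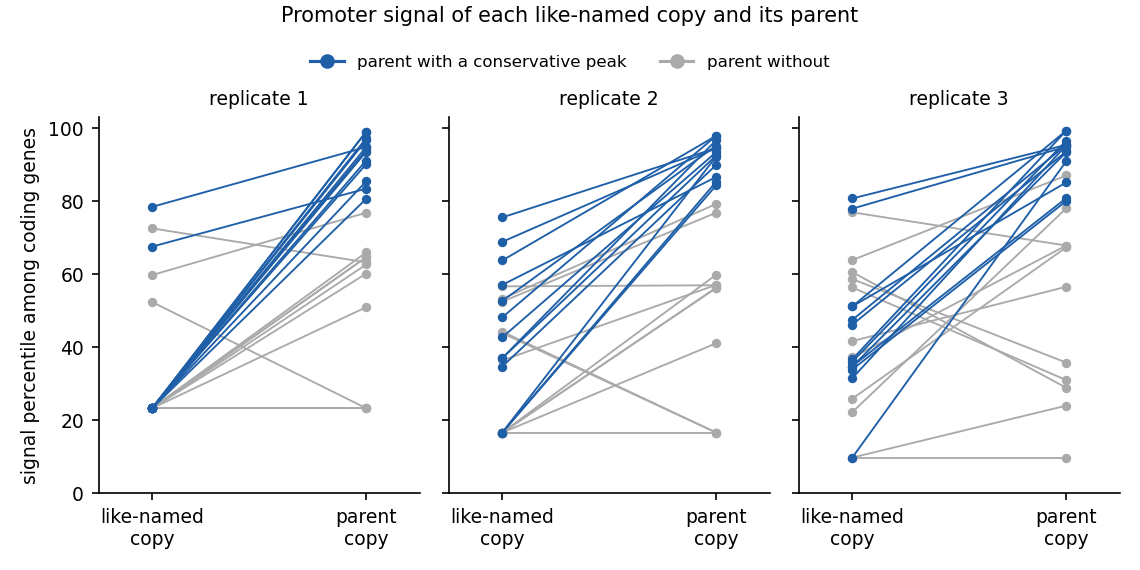
Signal percentile among all protein-coding genes of each like copy (left) and its parent (right) in replicates 1, 2 and 3, with 1 line per pair (24 pairs). Blue lines are the 13 pairs whose parent had a conservative peak, which was called from these same replicates. Grey lines, the 11 pairs with no conservative peak at either gene, run both ways.

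The promoters of like copies also differ in their surroundings. Another coding TSS lay within 500 bp of a TSS of 3 of the 24 like copies (12.5%), against 38 of the 64 other members (59.4%) and 30.9% of all genes. Over all genes, 42.1% of those with such a neighbour and 12.1% of those without one had a peak. Among genes without a neighbour, 0 of 21 like copies (0%, up to 15.5) and 10 of 26 other members (38.5%, 22.4 to 57.5) had a peak. The interval of these like copies includes the 12.1% of all such genes, and the part of neighbours in the difference was not tested. Among the other members with a neighbour, 21 of 38 had one (55.3%, 39.7 to 69.9).

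At the 31 bound members the summit lay a median of 72 bp from the TSS, against 85 bp for all genes with a peak. It was upstream in 24 of the 31 (77.4%), against 83.1%. Another coding gene had a TSS within 500 bp of the summit at 20 of them (64.5%), against 61.8%, and the member was the nearest coding gene at 21 (67.7%), against 68.0%. The median signal was 205 at members and 227 at all genes with a peak. In position and strength the member peaks were thus close to the other promoter peaks of the list.

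**Figure D4:**
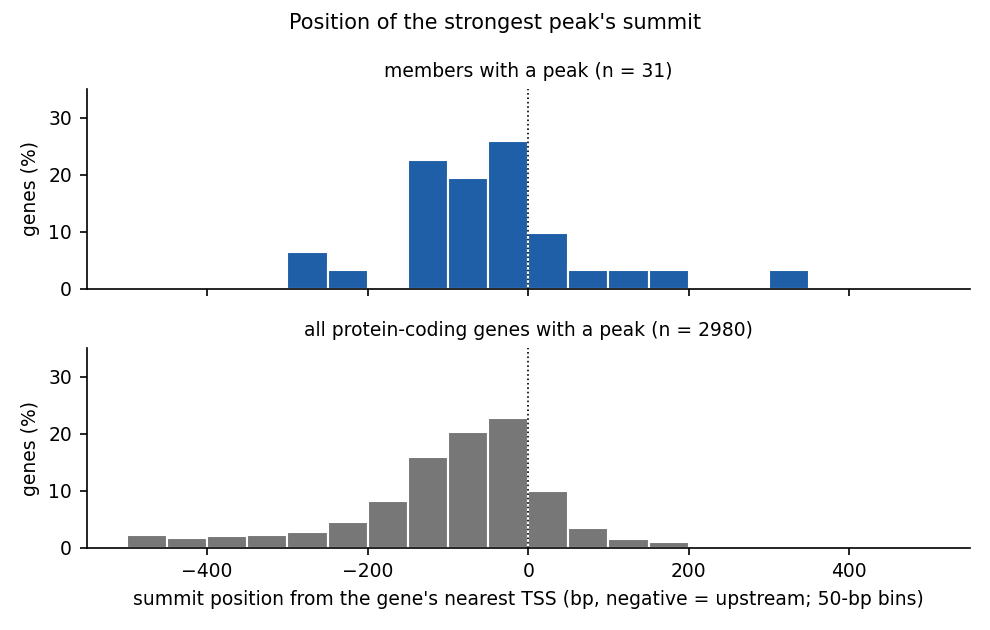
Position of the strongest peak's summit relative to the nearest TSS of the gene, in 50-bp bins, as percent of the 31 members with a peak (above) and of the 2980 protein-coding genes with a peak (below). The bins in the 150 bp upstream of the TSS hold most genes in both panels.

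Motifs were sought on both strands in the 300 bases from 250 before to 50 after the 5'-most TSS. The DNA replication-related element (DRE), TATCGATA, is the site of Dref, a factor of broadly expressed promoters; the sequence is its own reverse complement. It was found at 9 members (10.2%), against 9.36% of all genes, and all 9 had a peak (100%, 70.1 to 100). Over the genome 74.9% of genes with the element had a peak (978 of 1305), which lies within that interval, and 15.8% of those without it. Of the genes outside the symbol rule described below, levy and sesB had a DRE and a peak, and sun had a DRE but no peak. No like copy had a DRE, against 9 of the other 64 members (14.1%). The 9 were ND-15, ND-19, ND-23, ND-B14.5A, ND-B15, ND-MNLL, UQCR-14, COX4 and COX7A. Their summits lay a median of 34 bp from the middle of the element, with a range of 3 to 200 bp, and 6 lay within 50 bp. In a shorter window, from 100 before to 50 after the TSS, members stood below all genes, at 4.55% against 7.63%. Of the bound members 29.0% had a DRE, against 32.8% of all bound genes.

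The elements of 7 of these members are shown with their flanks to let the summit distances be placed on sequence. Each is 30 bases on the gene's own strand from the RefSeq copy of genome release 6, the release of dm6, with the DRE in capitals. The start of the element relative to the TSS is -123 for ND-15, -247 for ND-23, -71 for ND-B14.5A, -213 for ND-MNLL, -62 for UQCR-14, -102 for COX4 and -2 for COX7A.
ND-15: tgcaatcgataTATCGATAtgtcacaatca
ND-23: gtgcgaatttaTATCGATAgtgccattatc
ND-B14.5A: ttcgcgatagtTATCGATAagtatatcaat
ND-MNLL: agacgcccactTATCGATAagcggcttgtc
UQCR-14: tgagtgcgataTATCGATAggtgcagtgtg
COX4: gcgattgaataTATCGATAtattaatattt
COX7A: cgacatcgatgTATCGATAatacatcgata
Those of ND-15 (chr2L:114592-114621, plus strand), ND-B14.5A (chrX:2172444-2172473, plus strand) and COX7A (chr3R:8341027-8341056, minus strand) lay 9, 17 and 3 bp from the summit. At UQCR-14 (chrX:16286215-16286244, plus strand) the distance was 30 bp and at COX4 (chr2L:19958600-19958629, plus strand) 54 bp. It was 91 bp at ND-MNLL (chrX:7893993-7894022, minus strand) and 200 bp at ND-23 (chr3R:15837346-15837375, minus strand).

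Upstream sequence of ND-B14.5A, its like copy ND-B14.5AL, COX4 and COX7AL is given to show a bound promoter beside its unbound copy, a bound promoter with 2 elements and the highest like copy. Each run is the 120 bases directly before the 5'-most TSS on the gene's strand, from the same genome. Capitals mark the DRE and Motif 1 (GGTCACACT), a core promoter element of broadly expressed genes.
ND-B14.5A: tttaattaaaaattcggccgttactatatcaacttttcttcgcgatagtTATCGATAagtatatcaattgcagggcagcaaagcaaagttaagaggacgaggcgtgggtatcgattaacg
ND-B14.5AL: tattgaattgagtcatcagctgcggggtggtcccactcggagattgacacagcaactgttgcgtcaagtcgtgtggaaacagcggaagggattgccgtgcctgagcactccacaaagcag
COX4: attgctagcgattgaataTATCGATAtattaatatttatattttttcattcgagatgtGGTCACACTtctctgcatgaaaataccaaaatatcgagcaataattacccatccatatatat
COX7AL: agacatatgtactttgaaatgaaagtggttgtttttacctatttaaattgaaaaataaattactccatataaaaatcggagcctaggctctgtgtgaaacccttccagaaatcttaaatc
They lie at chrX:2172406-2172525 (plus), chr3L:22606249-22606368 (plus), chr2L:19958593-19958712 (plus) and chr3R:8343549-8343668 (plus). Of the 4, only the runs of the bound ND-B14.5A and COX4 hold a DRE.

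Motif 1 was the more common element among members, at 15 of 88 (17%), against 6.05% of all genes. Of these 15, 4 had a peak (26.7%), near the 32.9% of genes with the motif over the genome. Of the 14 members with Motif 1 but no DRE, 3 had a peak (21.4%), near the 25.4% of such genes. The bound ones were ND-13A, COX4, COX5B and COX7B, and COX4 was also the only member with both Motif 1 and the DRE. Among the 11 unbound were COX5A, the exception in complex IV, COX7AL, the only like copy with Motif 1, and ATPsynD. Motif 7 (CATCNCTA) was at 7 members (7.95%), against 6.42%, and 6 of them had a peak, against 64.4% of genes with it over the genome; the unbound one was ND-B16.6, named after its value was seen. Of the 59 members with none of the 3 elements, 14 had a peak (23.7%), against 12.9% of such genes in the genome.

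The T-box half-site GGTGTGA, the kind of site that T-box factors bind, was found at 4 members (4.55%), against 2.87% of all genes. A peak lay at 1 of the 4, against 27.8% of all genes with the half-site (111 of 400). It shares 6 letters with the reverse complement of Motif 1, but neither contains the other. The E-box CACGTG was at 4 members (4.55%), against 4.2%. The nuclear respiratory gene element and the NRF-1 palindrome were at no member, and over the genome at 0.158% and 0.208% of genes. A match describes letters in a window and not a binding site.

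**Figure D5:**
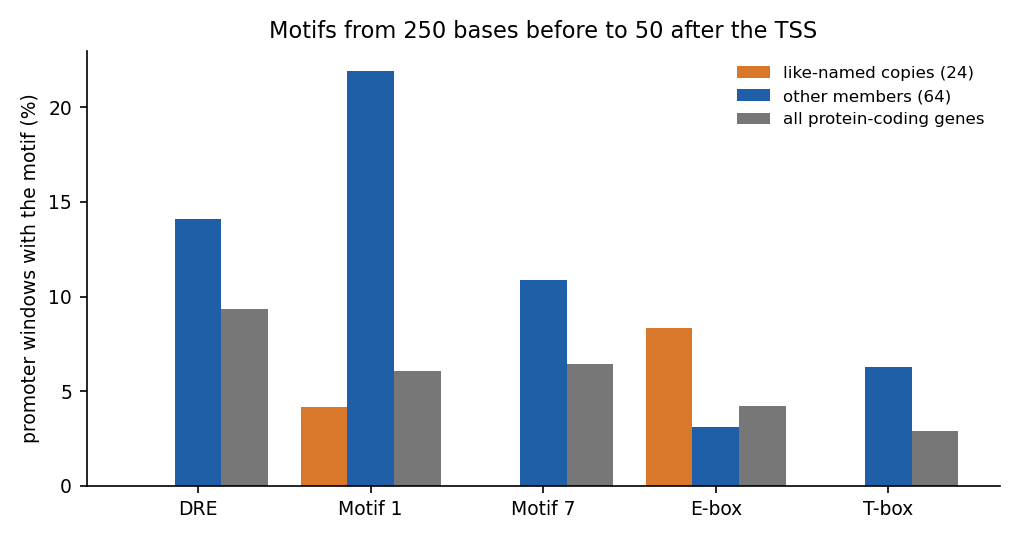
Percent of promoter windows that hold each motif on either strand, for the 24 like copies, the 64 other members and all protein-coding genes; windows run from 250 bases before to 50 after the 5'-most TSS. Bars start at 0: no like copy had a DRE, Motif 7 or T-box half-site, and Motif 1 was at 21.9% of the other members, against 6.05% of all genes.

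Respiratory genes outside the symbol rule were taken from a list chosen by role, to which Cox10, Cox11 and Cox17 were added. Their counts stand beside the same background of 21.4% of all genes. Of 10 structural genes 5 had a peak: levy at 634, cype at 346.6, blw (the ATP synthase alpha subunit) at 265, Cyt-c1 (the haem subunit of complex III) at 141.6 and Cyt-c-p (the broadly expressed cytochrome c) at 131.1. No peak lay at sun, RFeSP (the Rieske protein), ox, Cyt-c1L or the testis cytochrome c gene Cyt-c-d. Cyt-c1L had no ranked region in any replicate, while Cyt-c-d had signals of 14.27, 41.68 and 26.45, against 20.83, 79 and 33.61 for Cyt-c-p. Of 7 assembly genes 2 had a peak, Cox17 (262) and Cox11 (82.16). Both are added genes, and no assembly gene of the first list had a peak. All 3 regulator genes had one: ewg (413.6), the fly relative of NRF-1, Dref (210.5) and srl (84.62), the fly PGC-1 relative. Of 4 carrier and import genes only sesB, an ADP/ATP carrier gene, had one (168.1). With so few genes in each set, 2 of 7 and 1 of 4 are near the share of all genes.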

How the data were processed

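Peak lists from 3 biological replicates, as the labels call them, were analysed as deposited by the authors, on dm6 per the labels. Column 7 holds the authors' signal (never negative, scale not stated) and column 5 the authors' score, at least 830 in the thresholded lists; column 10 gave the summit. For the aligner and peak caller, names and versions were not given in the sources used here, nor was sequencing depth. Ranked lists of the whole series were left out. Values of column 7 were compared only within a list, through percentiles.

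Genes and TSSs came from Ensembl release 115 (annotation 6.54, the same genome release as dm6), and sequences from the RefSeq genome. Computation used Python 3.11.15, numpy 2.4.6, scipy 1.17.1 and matplotlib 3.10.9; the peak-to-gene step was tested on simulated data. The members and lists were chosen with earlier results of these data known. Named were bound members, like copies with their parents, and per complex the 3 highest and 3 lowest unbound members by mean percentile, the complex I core subunits and members next to the 500 bp limit. COX6AL was first noted as levy; the annotation holds both as separate genes, and levy was taken as its parent through a RefSeq synonym. Of the outside genes listed, Nnt was not matched. Alternatives were other series lists, stronger peaks, overlap and distance rules, TSS choice, leaving out replicates and other motif settings.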

Additional observations from a re-analysis of the deposited data

Results flagged for a closer look

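On the mitochondrial genome, which encodes the remaining subunits of complexes I, III, IV and V, replicate 1 had 12 thresholded peaks and replicates 2 and 3 had 0. It was noted because the sequence lies outside the main chromosomes that the comparisons use. The highest signal there was 6430, against 341.1 for the highest on the main chromosomes of the same list. The peaks overlapped 7 of the 13 mitochondrial coding genes: mt:ATPase6, mt:CoI, mt:CoII, mt:CoIII, mt:ND2, mt:ND3 and mt:ND5. No series-level thresholded list held a peak on this sequence, and no control sample was analysed here. The source of these peaks was not tested.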

How the results depend on the processing

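Of 127 recomputed values, 34 moved, that is by more than 1.5 times for a count or by 1 SD or more for the percentile, and 93 did not; within that tolerance members with a peak fell to 22 where only the nearest coding TSS counted. Set against all genes under the same setting, members, complexes I and IV and parents stayed above and like copies below in every alternative. Complex II came to stand above in 2 of 14 alternatives, complex III below or level in 9 of 14 and complex V below in 3 of 14. Like copies with a peak stayed at 0 in 11 of 14 alternatives. They numbered 1 in the series-level lists of 2301 and 3513 peaks (COX7AL) and 1 at 1000 bp (SdhBL). Complex III then had 1 in the lists of 2301 and 2456 peaks, and complex II had 2 in the lists of 2456 and 3513 peaks and 2 at 1000 bp. Complex II had 0 at 250 bp, 0 where only the nearest coding TSS counted and 0 in the stronger part of the list by signal. In that stronger part, where 13.9% of all genes had a peak, 19 members (21.6%), 10 of complex I (25%), 1 of complex III (11.1%) and 2 of complex V (13.3%) had one; with the nearest TSS alone, complex V had 2. Leaving out each replicate gave 16 to 20 members, 8 to 10 for complex I, 0 to 1 for complex II, 1 to 1 for complex III, 5 to 6 for complex IV, 2 to 3 for complex V and 8 to 9 parents; these fall by construction, since overlap with both other thresholded lists was required. The mean of the members' median percentile was 62.2, 68.3 at 1000 bp and 41.5 from the thresholded lists, where most genes are tied at 0. The DRE was at 14 members within 500 bases of the TSS (15.9%, against 12.3% of all genes), at 4 from 100 before to 50 after it (4.55%, against 7.63%, which turns the order), and at 26 by its inner 6 bases (29.5%, against 23.3%). Parents of the symbol rule alone, an alternative chosen after seeing the data, had 9 with a peak. Unknown depth, a single group and few genes per complex limit all comparisons.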
